A study of Homo sapiens with 6 samples.

Results

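The methionine cycle and transsulfuration enzymes examined here are 10 genes, MAT2A, MAT2B, AHCY, AHCYL1, MTR, MTRR, MTAP, NNMT, CBS and CTH. They were chosen by name, for their roles in making and using S-adenosylmethionine (SAM) and in carrying homocysteine to cysteine, out of 60664 genes in the deposited table. The choice was made with earlier results of these data known. The libraries came from 67R cells, a derivative of the human lung adenocarcinoma line NCI-H1975 made resistant to the EGFR inhibitor ASK120067. Control cells (siNC) were transfected with a negative control siRNA, BCAT1-knockdown cells (siBCAT1) with siRNA against the cytosolic branched-chain amino acid transaminase BCAT1, and 3 libraries of each were sequenced. Both groups share the cell line, its resistance and the transfection. More than 1 siRNA against BCAT1 is listed in the methods, where the name siBCAT1, as in the labels, stands for the second of them. The labels do not tell whether the libraries came from separate cultures, so p-values measure only the spread between these libraries.

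In the methionine cycle, methionine is joined to the adenosyl group of ATP to give SAM, the methyl donor of nearly all cellular methylation. Each methyl transfer leaves S-adenosylhomocysteine, which is hydrolysed to homocysteine, and homocysteine is either remethylated to methionine or drawn off through cystathionine to cysteine, the limiting precursor of glutathione. Tumour cells often depend on this supply of methyl groups and cysteine, and loss of the salvage gene MTAP makes them sensitive to inhibition of MAT2A.

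Of the 10 enzymes, 4 rose in siBCAT1 cells and none fell. CTH and CBS, the pair of transsulfuration enzymes, rose, as did MAT2B, the regulatory subunit of SAM synthetase, and MTAP, the first enzyme of methionine salvage. CTH changed most, from a mean of 5.91 to 16.8 TPM (a transcript abundance scaled for gene length and library total). The catalytic subunit MAT2A, the hydrolase AHCY, its relative AHCYL1, the remethylation enzymes MTR and MTRR, and NNMT did not pass the test. Expression was compared as log2(TPM + 1) with limma's moderated test, and a gene was called at an adjusted p (Benjamini-Hochberg over the 14286 genes whose mean reached 1 TPM) under 0.05. All 10 enzymes passed this filter. Over all genes tested, 27.1% were called, 16.7% as higher and 10.4% as lower, so a call was common in this comparison. The excess of higher calls (2382 against 1483) shrank with the scaling, to 1957 against 1802 under median-ratio scaling and to 2042 against 1865 under quantile normalization. The groups did not overlap for 4 of the 10 enzymes and for 44.1% of all genes tested. The median log2 fold change was 0.18 over the 10 enzymes and 0.04 over all tested genes (-0.0063 under median-ratio scaling). A log2 fold change above 0 was found for 10 of 10 enzymes and for 54.4% of all tested genes. Of the 10 enzymes, 6 were not called, and AHCYL1 (-0.013) and NNMT (-0.038) were below 0 under quantile normalization. The enzymes were chosen with earlier results of these data known, so these shares describe the set and do not test it.

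**Figure D1:**
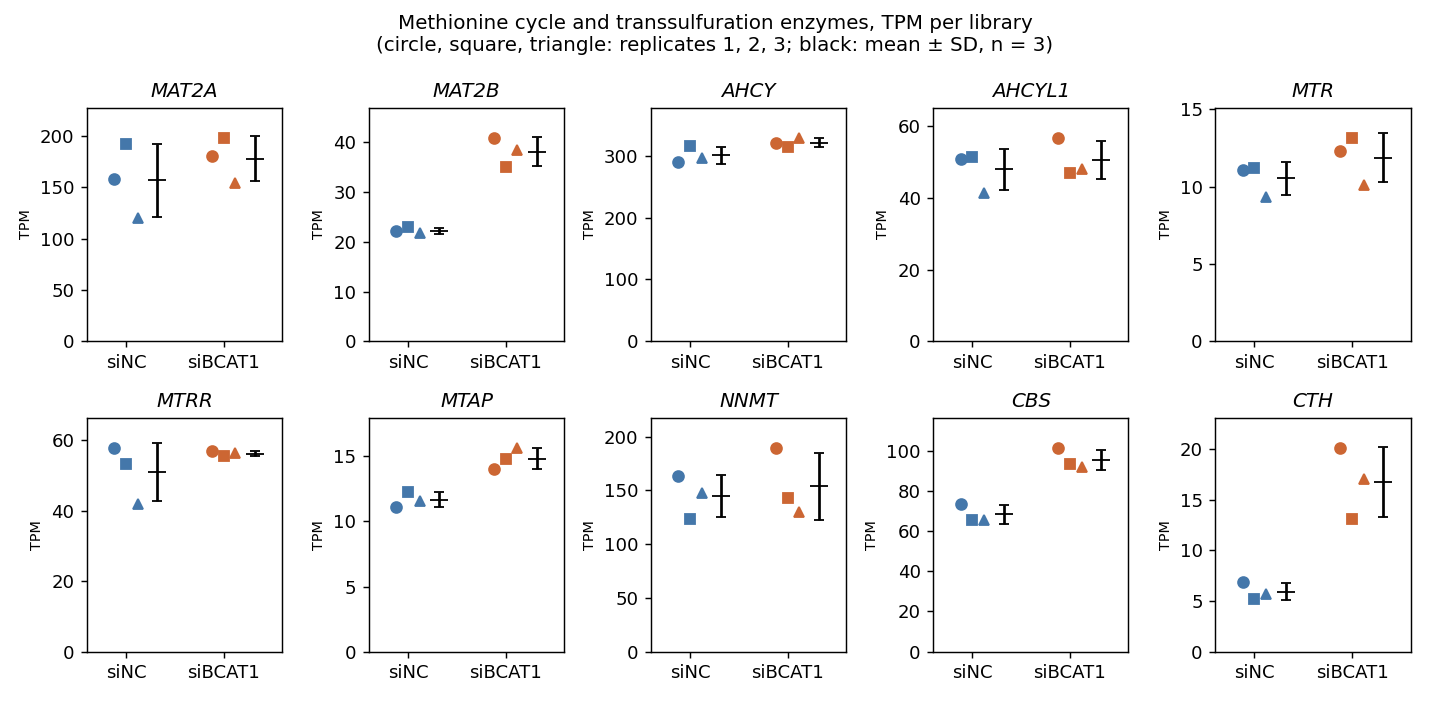
TPM (vertical axis, from 0) of each of the 10 enzymes in the 3 siNC and 3 siBCAT1 libraries, with circles, squares and triangles for replicates 1, 2 and 3 and black bars for the mean ± SD. For MAT2B, MTAP, CBS and CTH every siBCAT1 library lies above every siNC library, and for the other 6 the groups overlap.

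BCAT1 itself, the targeted gene, fell from 38.2 ± 7.33 to 7.96 ± 0.841 TPM (SD, n = 3 each). The groups did not overlap. TPM values keep no total depth, and the libraries had between 23152 and 25043 genes above 0. The mitochondrial genome took 10.22% to 10.43% of TPM in siNC and 9.327% to 10.16% in siBCAT1 libraries, lower in the latter without overlap, and its part in the results was not tested. The labelled epithelial origin was checked against 10 markers, whose summed level was 2564 to 2970 TPM in siNC and 1664 to 1952 TPM in siBCAT1 cells, nearly all from keratins. Markers of the lung lineage were near absent, with NKX2-1 and NAPSA at no more than 0.33 TPM, and EPCAM was at 0.91 to 2.61 TPM. The 4 endothelial markers summed to at most 2.69 TPM. The 5 leukocyte markers summed to 30.3 to 39.4 TPM in siNC and 53.6 to 60.8 TPM in siBCAT1 cells, mostly from CD68, with CD3E at 0 in every library. The 6 fibroblast markers summed to 253 to 274 TPM in siNC and 189 to 245 TPM in siBCAT1 cells, mostly from COL1A2, with DCN and LUM at 0. The epithelial and fibroblast sums were lower and the leukocyte and endothelial sums higher after the knockdown, with no overlap between groups, and their part in the results on the enzymes was not tested. Both groups share the cell line, so these sums are not read as numbers of leukocytes, fibroblasts or endothelial cells. In such bulk libraries, fewer cells expressing a gene and less of its RNA per cell cannot be told apart.

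CTH (ENSG00000116761, GRCh38 chromosome 1, 70411218 to 70439851, plus strand) encodes cystathionine gamma-lyase, which splits cystathionine to release cysteine. In the order of replicates 1, 2 and 3, which is kept below, CTH was at 6.86, 5.18 and 5.70 TPM in siNC and at 20.1, 13.1 and 17.1 TPM in siBCAT1 libraries. The lowest siBCAT1 library was well above the highest siNC library, and siBCAT1 replicate 1 was the highest of all. The means were 5.91 ± 0.860 and 16.8 ± 3.48 TPM (SD, n = 3 each), and the log2 fold change of CTH was 1.35 (SE 0.17, limma adjusted p = 0.00187). Of the 14286 genes tested, 139 had a larger rise than CTH.

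CBS (ENSG00000160200, chromosome 21, 43053191 to 43076943, minus strand) encodes cystathionine beta-synthase, which condenses homocysteine with serine and so commits it to transsulfuration. CBS was at 73.7, 65.6 and 65.7 TPM in the siNC libraries and at 101, 93.5 and 91.7 TPM in the siBCAT1 libraries. The groups did not overlap and the libraries within each lay close together. Its log2 fold change was 0.48 (SE 0.07, limma adjusted p = 0.00390), a rise from 68.3 ± 4.65 to 95.4 ± 5.005 TPM (SD, n = 3 each).

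CBS has a near-identical copy in GRCh38, CBSL (chromosome 21, 6444869 to 6468040, minus strand). The coding sequences of their principal transcripts in GENCODE 29 are each 1653 bases long and differ at 1 position, so reads of the pair can hardly be told apart and each value alone is uncertain. CBSL was at 5.02, 5.19 and 6.96 TPM in siNC and at 10.1, 7.25 and 7.85 TPM in siBCAT1 libraries. These groups did not overlap either, and the log2 fold change of CBSL was 0.49 (SE 0.16, limma adjusted p = 0.0675), short of the threshold. With the values of CBS and CBSL added together the log2 fold change was 0.48 (limma adjusted p = 0.00352), so the sum, which does not depend on how reads were divided between them, rose as CBS did.

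Within a library, the ratio of CTH to CBS does not depend on how that library was scaled. It was 0.0931, 0.0789 and 0.0868 in the siNC libraries and 0.198, 0.140 and 0.186 in the siBCAT1 libraries. The ratio was higher in 3 of 3 siBCAT1 libraries than in any siNC library, a difference of 1.01 on the log2 scale (two-sided exact permutation p = 0.1, the smallest that 3 libraries against 3 allow, 0.4 after Benjamini-Hochberg adjustment over the 4 ratios computed). CBS was the more abundant transcript of the pair in all 6 libraries.

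MAT2B (ENSG00000038274, chromosome 5, 163503114 to 163519336, plus strand) encodes the regulatory subunit of methionine adenosyltransferase II, which binds the catalytic subunit. MAT2B was at 22.1, 22.9 and 21.7 TPM in the siNC libraries and at 40.9, 35.0 and 38.5 TPM in the siBCAT1 libraries. The siNC libraries were nearly equal, and every siBCAT1 library was higher. The means were 22.2 ± 0.612 and 38.1 ± 2.94 TPM (SD, n = 3 each). The log2 fold change of MAT2B was 0.75 (SE 0.08, limma adjusted p = 0.00109).

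MAT2A (ENSG00000168906, chromosome 2, 85539165 to 85545280, plus strand) encodes the catalytic subunit that makes SAM outside the liver. MAT2A was at 158, 192 and 120 TPM in siNC and at 181, 198 and 154 TPM in siBCAT1 libraries. The groups overlapped, and replicate 3 was the lowest library of each. The log2 fold change of MAT2A was 0.20, with a 95% interval from -0.20 to 0.60 (limma adjusted p = 0.423). Rises of the size estimated for CTH and MAT2B lie outside this interval, while those estimated for CBS (0.48) and MTAP (0.32) lie within it.

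The ratio of MAT2A to MAT2B was 7.14, 8.38 and 5.55 in the siNC libraries and 4.42, 5.65 and 4.01 in the siBCAT1 libraries. The highest siBCAT1 value was just above the lowest siNC value, so the groups overlapped. The difference of -0.58 on the log2 scale did not reach the smallest possible p (two-sided exact permutation p = 0.2, adjusted p = 0.4 over the 4 ratios).

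MTAP (ENSG00000099810, chromosome 9, 21802543 to 21937651, plus strand) encodes methylthioadenosine phosphorylase, which cleaves the by-product of polyamine synthesis and begins its return to methionine. MTAP was at 11.2, 12.3 and 11.6 TPM in siNC and at 14.0, 14.8 and 15.6 TPM in siBCAT1 libraries. The transcript was present in every library, and the groups did not overlap. The log2 fold change of MTAP was 0.32 (SE 0.09, limma adjusted p = 0.0342). This call was the weakest of the 4, since it was lost under 8 of 14 alternatives, among them median-ratio scaling (adjusted p = 0.0766) and the omission of siNC replicate 1 (adjusted p = 0.110) with the same limma test. The neighbours of MTAP on chromosome 9 gave no call among 3 tested: CDKN2A, the cyclin-dependent kinase inhibitor locus often deleted together with MTAP, was at 50.8 to 61.1 TPM in siNC and 56.9 to 61.5 TPM in siBCAT1 libraries.

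AHCY (ENSG00000101444, chromosome 20, 34280268 to 34311802, minus strand), which hydrolyses S-adenosylhomocysteine, was the most abundant of the 10. It was at 290, 316 and 297 TPM in siNC and at 321, 315 and 329 TPM in siBCAT1 libraries. The groups overlapped narrowly, and the interval of its log2 fold change, from -0.02 to 0.22, was the narrowest of the 10 (estimate 0.10, limma adjusted p = 0.198). The rows of its processed pseudogenes were at 0 or at most 0.10 TPM, and adding them to AHCY left its log2 fold change at 0.10.

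AHCYL1 (ENSG00000168710, chromosome 1, 109984686 to 110023741, plus strand) encodes an AHCY-like protein that binds the inositol trisphosphate receptor. It was at 50.9, 51.5 and 41.4 TPM in siNC and at 56.7, 47.0 and 48.0 TPM in siBCAT1 libraries, with a log2 fold change of 0.08 (interval from -0.19 to 0.34). The groups overlapped, and the sign of the difference turned under quantile normalization, to -0.013. The ratio of AHCY to AHCYL1 was 6.33 ± 0.760 in siNC and 6.41 ± 0.656 in siBCAT1 libraries (SD, n = 3 each, two-sided exact permutation p = 1.0).

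MTR (ENSG00000116984, chromosome 1, 236795281 to 236903981, plus strand) encodes methionine synthase, the cobalamin-dependent enzyme that remethylates homocysteine, and MTRR (ENSG00000124275, chromosome 5, 7851186 to 7906025, plus strand) the reductase that keeps its cofactor active. MTR was at 11.1, 11.2 and 9.32 TPM in siNC and at 12.3, 13.2 and 10.1 TPM in siBCAT1 libraries. MTRR was at 57.7, 53.4 and 41.9 TPM in siNC and at 57.0, 55.5 and 56.4 TPM in siBCAT1 libraries. For both the groups overlapped and siNC replicate 3 was the lowest of the 6 libraries. The log2 fold change was 0.15 for MTR (interval from -0.15 to 0.45) and 0.15 for MTRR (interval from -0.12 to 0.42). Their ratio was 0.208 ± 0.0154 in siNC and 0.211 ± 0.0294 in siBCAT1 libraries (SD, n = 3 each, two-sided exact permutation p = 1.0). FASTKD3, which lies within the annotated span of MTRR on the opposite strand, rose from 19.7 ± 1.04 to 28.0 ± 3.37 TPM (SD, n = 3 each, log2 fold change 0.48, limma adjusted p = 0.0150), a call that held under 11 of 14 alternatives. Whether the quantification used strand is not given in the sources used here, so reads of this pair may be shared.

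Counted over the 10 enzymes, siNC replicate 3 was the lowest of the 6 libraries for 5 of them, MAT2A, MAT2B, AHCYL1, MTR and MTRR, against 25.4% of all tested genes. Without that library, CTH, CBS and MAT2B remained called, MTAP was not, and the log2 fold change fell to 0.023 for MAT2A, to 0.073 for MTR and to 0.019 for MTRR. Other libraries also moved these 3 uncalled values: MAT2A reached 0.36 without siNC replicate 2, MTR 0.079 without siBCAT1 replicate 2 and 0.26 without siBCAT1 replicate 3, and MTRR 0.25 without siNC replicate 1.

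NNMT (ENSG00000166741, chromosome 11, 114257787 to 114313285, plus strand) encodes nicotinamide N-methyltransferase, which spends SAM on nicotinamide. NNMT was at 163, 124 and 148 TPM in siNC and at 189, 143 and 130 TPM in siBCAT1 libraries. The groups overlapped over most of their range, and the log2 fold change of 0.08 (interval from -0.29 to 0.44, limma adjusted p = 0.746) turned to -0.038 under quantile normalization.

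**Figure D2:**
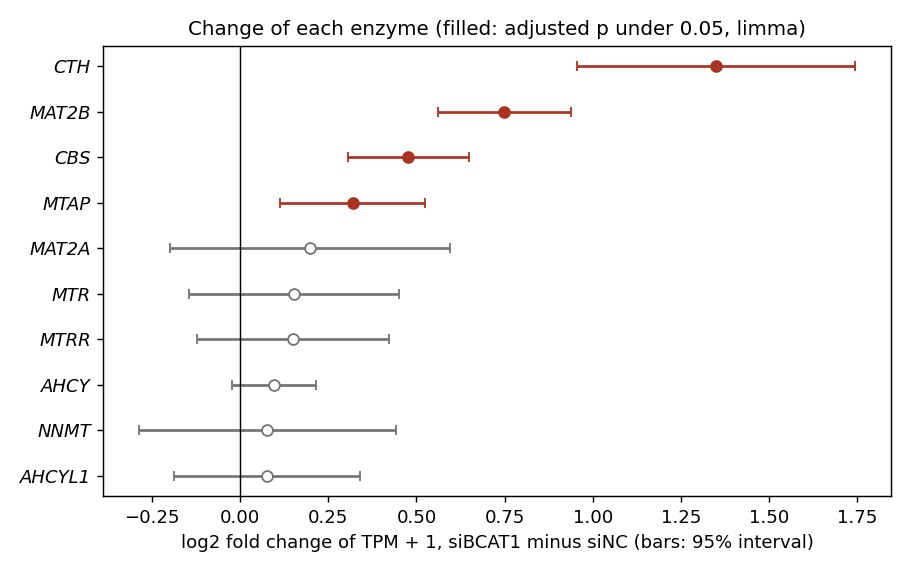
Log2 fold change of TPM + 1, siBCAT1 minus siNC (horizontal axis), for each enzyme, with bars for the 95% interval from limma and filled points for an adjusted p under 0.05. The intervals of CTH, MAT2B, CBS and MTAP lie above 0, from CTH at 1.35 down to MTAP at 0.32, and those of the other 6 include 0.

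TPM is scaled for gene length, so levels can be ordered across the enzymes. By the mean TPM over the 6 libraries the order was AHCY (311), MAT2A (167), NNMT (149), CBS (81.9), MTRR (53.6), AHCYL1 (49.2), MAT2B (30.2), MTAP (13.2), CTH (11.3) and MTR (11.2). The ranges over libraries overlapped for MAT2A and NNMT, for MTRR and AHCYL1, and among MTAP, CTH and MTR. Compared within each library, MTRR was above AHCYL1 and MTAP above MTR in 6 of 6, by small margins in some. MAT2A was above NNMT in 3 of 6 libraries, MTAP above CTH in 4 of 6 and CTH above MTR in 2 of 6, so these pairs had no fixed order. In siNC cells CTH was the least abundant of the 10, and in siBCAT1 cells, at 13.1 to 20.1 TPM, its range overlapped those of MTAP and MTR. The liver-type catalytic gene MAT1A and the betaine-dependent remethylation gene BHMT were listed at 0 in every library, while MAT2A, MTR and MTRR were present in all of them.

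The promoters of the 3 strongest calls are shown, and whether these genes share a regulator was not tested. RefSeq windows (GRCh38.p14) around an annotated start were found for 8 of the 10 enzymes, and genes with several starts have several windows. For MAT2B and CBS the window printed is one that holds a CCAAT box, the site of the trimeric factor NF-Y, and for CTH it is the only window. Capitals mark CCAAT or its reverse complement ATTGG, and each sequence is written 5′ to 3′ on the strand of the gene. The windows are chr1:70411018-70411317 (plus) for CTH, chr21:43075786-43076085 (minus) for CBS and chr5:163505369-163505668 (plus) for MAT2B.
CTH: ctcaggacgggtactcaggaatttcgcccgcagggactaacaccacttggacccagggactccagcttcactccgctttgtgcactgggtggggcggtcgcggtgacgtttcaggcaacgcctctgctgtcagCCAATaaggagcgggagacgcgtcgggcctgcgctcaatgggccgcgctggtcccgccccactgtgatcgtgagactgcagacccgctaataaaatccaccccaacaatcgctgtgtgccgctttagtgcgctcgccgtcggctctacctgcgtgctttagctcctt
CBS: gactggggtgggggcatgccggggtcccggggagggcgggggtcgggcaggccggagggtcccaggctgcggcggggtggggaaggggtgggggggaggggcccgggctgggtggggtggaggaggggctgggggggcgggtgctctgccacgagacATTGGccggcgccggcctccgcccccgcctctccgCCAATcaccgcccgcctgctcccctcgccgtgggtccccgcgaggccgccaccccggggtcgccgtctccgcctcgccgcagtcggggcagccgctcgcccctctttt
MAT2B: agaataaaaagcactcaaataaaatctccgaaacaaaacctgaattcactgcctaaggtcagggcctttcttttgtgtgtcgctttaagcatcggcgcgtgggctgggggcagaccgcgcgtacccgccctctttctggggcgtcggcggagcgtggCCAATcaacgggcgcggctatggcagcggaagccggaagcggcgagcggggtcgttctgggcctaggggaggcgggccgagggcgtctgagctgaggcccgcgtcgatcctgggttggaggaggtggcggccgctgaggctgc

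The CCAAT word, on either strand, was present in 9 of the 16 windows of these enzymes, from 7 of the 8 genes, called or not, and in 34.6% of all 35116 promoter windows. The GC box GGGCGG, on either strand, was present in 11 of the 16 windows, from all 8 genes, and in 45.0% of all windows. Both windows of MTR overlap over nearly all their length and hold the same CCAAT and GC box sites. Each of them is counted in these shares. The word TGATGNAA, the core of the composite element bound by ATF4, the factor that induces amino acid response genes including CTH, was in none of these windows on either strand and in 3.62% of all windows. It was present in a window of BCAT1, beginning 48 bases before the start. These are matches of letters within the windows and not measured sites.

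Of 88 other genes of the pathway in 9 lists, 74 were tested and 27 (36.5%) were called, 20 higher and 7 lower. Over all genes tested 27.1% were called, 16.7% as higher and 10.4% as lower. The median log2 fold change of the 74 was 0.07. Under median-ratio scaling 15 were called higher and 8 lower, and under quantile normalization 15 and 6. Without siNC replicate 3 the count of calls was 17. The lists below are described by such counts and by the called genes with the largest changes. They too were chosen with earlier results of these data known, so the counts do not test them.

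**Figure D3:**
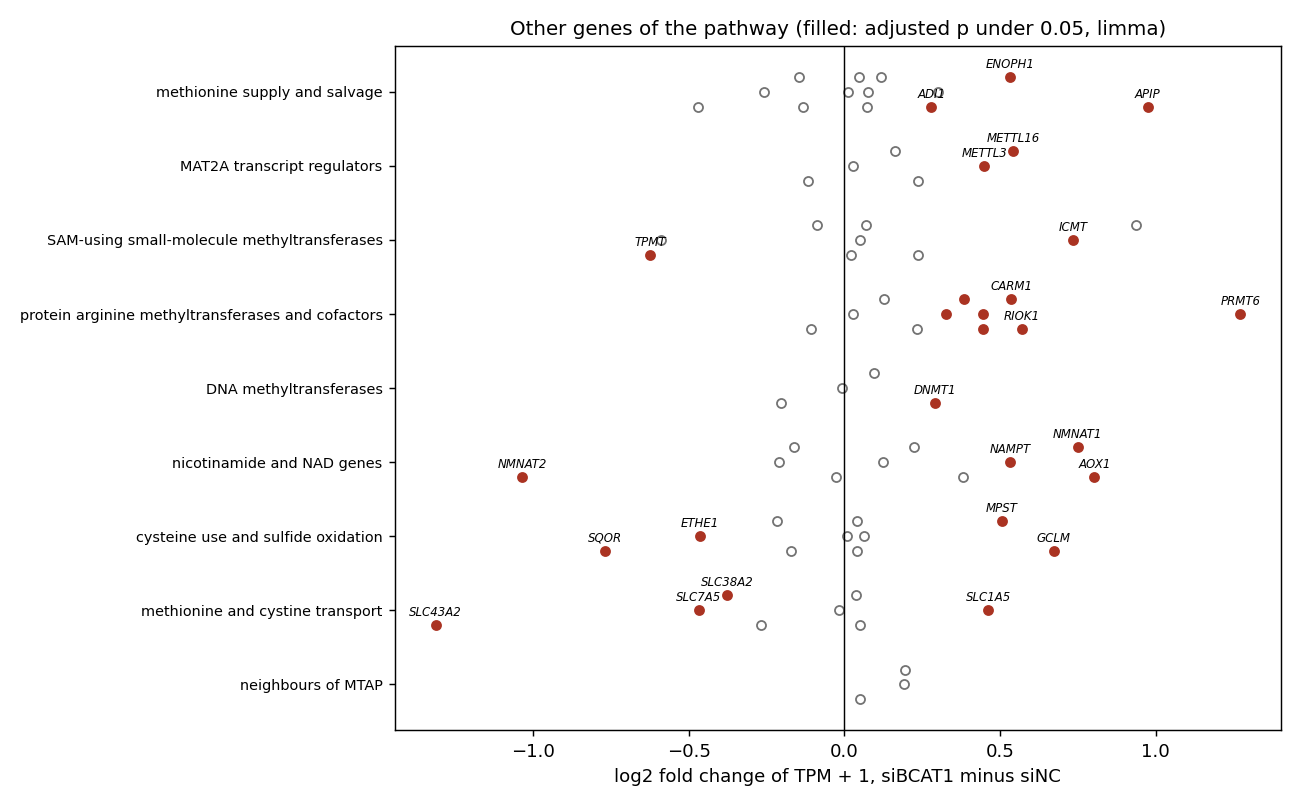
Log2 fold change of TPM + 1, siBCAT1 minus siNC (horizontal axis), for the 74 tested genes of 9 lists, with filled points for an adjusted p under 0.05 from limma and labels for the named genes. The called genes of methionine supply and salvage (3 of 13) and of the arginine methyltransferase list (7 of 11) lie on the right of 0, up to PRMT6 at 1.27. Of the 4 called transporters, 3 lie on the left, down to SLC43A2 at -1.31.

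Methionine supply and salvage held 3 called genes of 13 tested, all higher, and each acts in the salvage pathway after MTAP. APIP, the methylthioribulose-phosphate dehydratase, was at 31.1, 30.4 and 27.6 TPM in siNC and at 58.6, 59.0 and 60.2 TPM in siBCAT1 libraries. The siBCAT1 libraries were nearly equal and far above the siNC libraries (log2 fold change of APIP 0.97, SE 0.07, limma adjusted p = 0.000272). ENOPH1, the enolase-phosphatase that follows, was at 28.0, 35.8 and 29.6 TPM in siNC and at 47.7, 45.3 and 42.9 TPM in siBCAT1 libraries (log2 fold change 0.53, limma adjusted p = 0.00969). ADI1, the dioxygenase of the next step, was at 47.5, 51.8 and 49.9 TPM in siNC and at 59.4, 63.2 and 59.1 TPM in siBCAT1 libraries (log2 fold change 0.28, limma adjusted p = 0.0200). The call of ADI1 was lost under median-ratio scaling, under quantile normalization and without any 1 of several libraries. MRI1, the isomerase between MTAP and APIP, named here after its value was seen, averaged 19.1 ± 1.89 TPM in control and 17.1 ± 0.590 TPM in knockdown cells (SD, n = 3 each) and did not pass (log2 fold change -0.15, limma adjusted p = 0.299). Thus MTAP, APIP, ENOPH1 and ADI1 were called as higher and MRI1 was not.

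MAT2A transcripts are known to be controlled through the word TACAGAGAA in hairpins after the coding sequence, which METTL16 binds. METTL16 methylates adenosine there when SAM is present, and promotes splicing of the last intron when SAM is low. The transcript MAT2A-201 of GENCODE 29, 2819 bases long with its last sense codon ending at position 1308, holds the word 5 times, and the sites are shown because METTL16 is among the genes that rose. Of 83129 protein-coding transcripts 2.14% hold the word at all and 2 hold it at least 5 times. Capitals mark the word, with 10 bases on each side, on the strand of the transcript.
Position 1351: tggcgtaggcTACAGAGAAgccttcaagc
Position 2138: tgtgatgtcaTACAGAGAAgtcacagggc
Position 2323: ctggtgtagcTACAGAGAAaccagcttcc
Position 2438: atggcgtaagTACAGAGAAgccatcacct
Position 2661: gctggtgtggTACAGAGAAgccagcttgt

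METTL16 was at 17.0, 15.5 and 12.4 TPM in siNC and at 22.8, 23.1 and 20.4 TPM in siBCAT1 libraries. The groups did not overlap (log2 fold change of METTL16 0.54, SE 0.12, limma adjusted p = 0.0178), while MAT2A itself was not called. METTL3, the catalytic subunit of the main adenosine methyltransferase of mRNA, rose from 42.7 ± 2.68 to 58.6 ± 4.39 TPM (SD, n = 3 each, log2 fold change 0.45, limma adjusted p = 0.00781). Its partners METTL14 (log2 fold change 0.16) and WTAP (0.24), the reader YTHDC1 (-0.12) and the cleavage factor NUDT21 (0.03) did not pass, so 2 of 6 tested regulators were called.

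Among enzymes that spend SAM on small molecules or, as ICMT does, on prenylated cysteine of proteins, 2 of 9 tested were called. ICMT rose from 19.9 ± 1.72 to 33.8 ± 1.16 TPM (SD, n = 3 each, log2 fold change 0.74, limma adjusted p = 0.00137). TPMT, the thiopurine methyltransferase, fell from 19.01 ± 2.01 to 11.9 ± 0.629 TPM (SD, n = 3 each, log2 fold change -0.62, limma adjusted p = 0.00477). The SAM-using enzyme GNMT, abundant in liver, was under the filter, with at most 0.69 TPM.

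Of the protein arginine methyltransferases and their cofactors, 7 of 11 tested were called, all higher. PRMT6, which methylates arginine of histone H3, was at 1.69, 2.19 and 1.49 TPM in siNC and at 5.50, 6.94 and 4.82 TPM in siBCAT1 libraries (log2 fold change of PRMT6 1.27, SE 0.18, limma adjusted p = 0.00267). CARM1, a transcriptional coactivator, rose from 212 ± 5.87 to 308 ± 16.9 TPM (SD, n = 3 each, log2 fold change 0.54, limma adjusted p = 0.00104). RIOK1, an adaptor of PRMT5, rose from 15.5 ± 2.003 to 23.3 ± 0.506 TPM (SD, n = 3 each, log2 fold change 0.57, limma adjusted p = 0.00781). The other 4 that were called had log2 fold changes between 0.33 and 0.45. Of the list of DNA methyltransferases, which includes a tRNA methyltransferase, 1 of 4 was called. This was DNMT1, the maintenance enzyme, averaging 160 ± 13.2 TPM in control and 195 ± 8.75 TPM in knockdown cells (SD, n = 3 each, log2 fold change 0.29, limma adjusted p = 0.0246, called under 5 of 14 alternatives).

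Around NNMT, 4 of 10 tested nicotinamide and NAD genes were called, 3 higher and 1 lower. NAMPT, the rate-limiting enzyme that returns nicotinamide to NAD, was at 131, 118 and 119 TPM in siNC and at 221, 152 and 168 TPM in siBCAT1 libraries (log2 fold change of NAMPT 0.53, limma adjusted p = 0.0247, called under 7 of 14 alternatives). NMNAT1, the nuclear adenylyltransferase, rose from 3.93 ± 0.306 to 7.36 ± 1.55 TPM (SD, n = 3 each, log2 fold change 0.75, limma adjusted p = 0.0124), and its axonal counterpart NMNAT2 fell from 3.84 ± 1.54 to 1.34 ± 0.681 TPM (SD, n = 3 each, log2 fold change -1.03, limma adjusted p = 0.0416, called under 6 of 13 alternatives). AOX1, which oxidises the product of NNMT, rose from 2.32 ± 0.233 to 4.97 ± 1.74 TPM (SD, n = 3 each, log2 fold change 0.80, limma adjusted p = 0.0427, called under 4 of 13 alternatives).

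Beyond CTH, cysteine use and sulfide oxidation gave 4 calls among 10 tested, 2 in each direction. GCLM, the modifier subunit of glutamate-cysteine ligase, rose from 5.53 ± 0.976 to 9.35 ± 0.805 TPM (SD, n = 3 each, log2 fold change 0.67, limma adjusted p = 0.0117). MPST, a sulfurtransferase, rose from 70.2 ± 12.5 to 99.5 ± 12.4 TPM (SD, n = 3 each, log2 fold change 0.51, limma adjusted p = 0.0406, called under 3 of 14 alternatives). SQOR, the sulfide quinone oxidoreductase of mitochondria, was at 4.05, 3.62 and 3.24 TPM in siNC and at 1.6, 2.26 and 1.36 TPM in siBCAT1 libraries (log2 fold change of SQOR -0.77, limma adjusted p = 0.0197, called under 9 of 13 alternatives). ETHE1, the persulfide dioxygenase, was at 14.9, 15.6 and 14.7 TPM in siNC and at 9.27, 11.9 and 10.97 TPM in siBCAT1 libraries (log2 fold change -0.46, limma adjusted p = 0.0187, called under 9 of 14 alternatives). TST (-0.22) and SUOX (-0.17), which also act on sulfur released from cysteine, did not pass.

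Of the transporters of methionine, cystine and related amino acids, 4 of 8 tested were called, 1 higher and 3 lower. SLC43A2, a facilitative transporter that carries methionine, was at 35.9, 26.6 and 35.8 TPM in siNC and at 12.2, 11.5 and 13.8 TPM in siBCAT1 libraries. Every siBCAT1 library lay far below every siNC library (log2 fold change of SLC43A2 -1.31, SE 0.14, limma adjusted p = 0.000956). SLC7A5, the exchanger of large neutral amino acids, and SLC38A2, a sodium-coupled carrier of small ones, fell by 0.47 and by 0.38 on the log2 scale. SLC1A5, the exchanger of neutral amino acids, rose from 153 ± 2.99 to 212 ± 17.0 TPM (SD, n = 3 each, log2 fold change 0.46, limma adjusted p = 0.00317). SLC7A11, the cystine importer that supplies cysteine from outside the cell, named here after its value was seen, averaged 5.88 ± 0.350 TPM in control and 5.81 ± 0.655 TPM in knockdown cells (SD, n = 3 each, log2 fold change -0.02, interval from -0.30 to 0.26).

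Of the 23 called genes named from these lists, 12 remained called under every alternative run. The other 11 (ADI1, METTL16, DNMT1, NAMPT, NMNAT1, NMNAT2, AOX1, GCLM, MPST, SQOR and ETHE1) were not called under at least 1 alternative, most often when a library was left out. They ranged from MPST, called under 3 of 14 alternatives, to NMNAT1, called under 13 of 14. Genes with 13 alternatives were removed by the filter at a mean of 5 TPM.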

How the data were processed

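Polyadenylated RNA of 6 libraries, 3 siNC and 3 siBCAT1, was measured with a stranded Illumina kit. Groups and replicate numbers came from the sample titles. The deposited values are TPM per gene beside a gene length, made by the authors with fastp, HISAT2 and StringTie on GRCh38 according to the submitters' processing notes. Versions and the annotation are not given in the sources used here. The unit was read from the values, which sum to between 992512 and 995593 per library. TPM keeps no read counts, so total depth is unknown and precision rests on the spread between libraries.

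Values were taken as log2(TPM + 1), a scale that understates the change of low genes. The test, limma 3.58.1 under R 4.3.3 on the 14286 of 60664 genes whose mean reached 1 TPM, used a trend and was two-sided, at a Benjamini-Hochberg adjusted 0.05, and intervals are at 95%. Ratios were compared with exact permutation tests (scipy 1.17.1). Gene coordinates came from GENCODE 29 (GRCh38). The fit was checked on simulated data. Named genes were the 10 enzymes, BCAT1, near-identical copies of the enzymes and their neighbours, the listed regulators of MAT2A transcripts, and at most 3 called genes in each direction per list. CDKN2A, MRI1, SLC7A11, TST, SUOX, GNMT, MAT1A and BHMT were named after their values were seen. The enzymes and lists were chosen with earlier results of these data known. TMT1A was matched under its older name METTL7A, and AHCYP1 and MAT2AP1 were not analysed here. Alternatives were other filters (none, or a mean of 5 TPM), 0.1 as the pseudocount, a block for the replicate number, median-ratio scaling, quantile normalization, a loess correction for gene length, limma without trend, each library left out, and sums with near-identical copies.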

Additional observations from a re-analysis of the deposited data

How the results depend on the processing

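The calls of CTH, MAT2B and CBS and their direction held under every alternative run, with log2 fold changes from 1.22 to 1.504, from 0.69 to 0.81 and from 0.39 to 0.53, and so did the fall of BCAT1, from -2.28 to -2.03. The number of enzymes called was 3 or 4 throughout, the difference being MTAP, whose adjusted p from limma ranged from 0.0260 to 0.110. Among enzymes that were not called, signs turned for AHCYL1 under quantile normalization (-0.013) and with libraries left out (from -0.023 to 0.13), and for NNMT likewise (-0.038, and from -0.079 to 0.19). NUDT21 turned to -0.020 under median-ratio scaling and to -0.036 under quantile normalization. With libraries left out, the log2 difference in the ratio of MTR to MTRR lay between -0.078 and 0.12 and that of AHCY to AHCYL1 between -0.054 and 0.11, both on either side of 0. The cause of these turns was not tested.

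Across all genes tested 3865 were called, 2567 with no filter on low values, where more genes were tested, and between 2318 and 3706 with 1 library left out, where fewer samples entered. The other genes in the lists gave between 17 and 24 calls with 1 library left out, against 27 with all. With the replicate number as a block 4568 genes were called across all genes, against 3865, and 4 of the 10 enzymes. Same-numbered libraries had deviations from their group means that correlated at 0.084, 0.102 and 0.124. Differently numbered libraries correlated at -0.081 to -0.013, so each library correlated best with its own number. The labels do not say whether the numbers mark pairs, and this was not tested. The design used here has no block. The block left the calls of the enzymes as they were, but the adjusted p of MAT2A from limma moved from 0.423 to 0.0909. Of the genes named above, it removed the call of AOX1 (adjusted p = 0.0579 from limma) and added that of WTAP (adjusted p = 0.0430 from limma). TPM values give no depth, so differences of low genes such as NMNAT2 and SQOR have no counting error beside the spread of 3 libraries.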
